A study of Mus musculus with 20 samples.

Results

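A set of 10 digestive enzyme genes of the pancreatic acinar cell was followed through RNA-Seq of sorted spleen T cells. The genes were *Amy2a5*, *Pnlip*, *Prss2*, *Try4*, *Ctrb1*, *Cela1*, *Cela2a*, *Cela3b*, *Cpa1* and *Cpb1*, out of 17101 genes in the table of normalized counts. They were selected on measured values, because reads of these enzymes had been seen in these libraries and the differences of some of them between genotypes were already known. Their presence and their KO against WT values are therefore given as a description. The question was whether such transcripts followed the genotype of the T cells, the sorted subset, or the animal from which the subsets came.

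The T cells came from a haploidentical bone marrow transplantation model, in which irradiated F1 recipients received marrow and T cells of B6 mice. The KO donors carried a conditional deletion labelled DNMT3a KO (CD4-Cre 2loxP), in which Cre under the *Cd4* promoter removes *Dnmt3a* in T cells, and the WT donors were littermates. Donors were 6 to 12 weeks and recipients 8 to 12 weeks of age per the labels. Donor T cells were sorted from the spleen on day +10 by flow cytometry, and all 5 groups shared the transplantation, the irradiation and the day. The groups, with 4 libraries apiece, were CD4+ and CD8+ cells of both genotypes and, from KO donors, CD4+CD8+ double-positive (DP) cells. Libraries were numbered 1 to 4 for KO and 2, 3, 5 and 6 for WT, and the numbers are called animal numbers below, although the labels do not say whether a number stands for 1 mouse or for a pool. WT DP cells were not analysed here.

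Acinar cells make up most of the pancreas and secrete amylase, lipases, carboxypeptidases, and zymogens of serine proteases such as trypsin, chymotrypsin and the elastases into the duct. Their messages are among the most abundant of any tissue, and their genes are switched on together by PTF1, a complex of PTF1A and RBPJL with an E protein, which binds an E-box next to a TC-box. Lymphocytes are not a textbook source of these enzymes. The pancreas lies beside the spleen, and its tail reaches the splenic hilum.

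The libraries held 37547651 to 46966318 reads on genes, so that 1 normalized count was close to 1 read. The number of genes with reads was 13203 to 14677 in 19 libraries and 11783 in the KO DP library of animal 3, which stood apart. For the members, most counts, correlations and spreads that include this library are also given without it below. Those without it were chosen after the data were seen. The further acinar list and the marker lists were not counted without it. *Dnmt3a* was lower in every KO library (650.4 to 2007 normalized counts) than in every WT library (3542 to 5171). Equal numbers deviated together from their group means within a genotype, with correlations across genes of 0.271 to 0.538 in KO and 0.120 to 0.196 in WT, whereas unequal numbers gave −0.395 to 0.116 in KO and −0.138 to 0.011 in WT. The 13 T cell markers were abundant everywhere and summed to 259596 to 456986 normalized counts per library.

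All 10 acinar genes had reads in all 20 libraries. Together they took 19.7 to 199 reads per 1000000 reads on genes. For KO animals 1 to 4 the summed normalized count was 2546, 2787, 7973 and 1593 in CD4+ cells, 2417, 3475, 8399.6 and 1061 in CD8+ cells, and 3103, 3954, 10230.0 and 1038 in DP cells. Animal 3 was thus the highest and animal 4 the lowest of the KO animals in each of the 3 subsets, and animals 2 and 1 came between them in the same order. In WT animals 2, 3, 5 and 6 the sum was 1522, 1152, 827 and 2899 in CD4+ cells and 1230.0, 830.0, 843 and 2188 in CD8+ cells, so that animal 6 was the highest in both subsets. The shares rest on 852 to 8350 reads per library, and their 95% Wilson intervals, which cover counting error only, did not overlap between animals 3 and 4 (177 to 184 against 34.6 to 38.4 reads per 1000000 in KO CD4+ cells). In bulk samples, fewer cells of a type and less RNA per cell cannot be told apart, and the source of these reads was not measured.

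**Figure D1:**
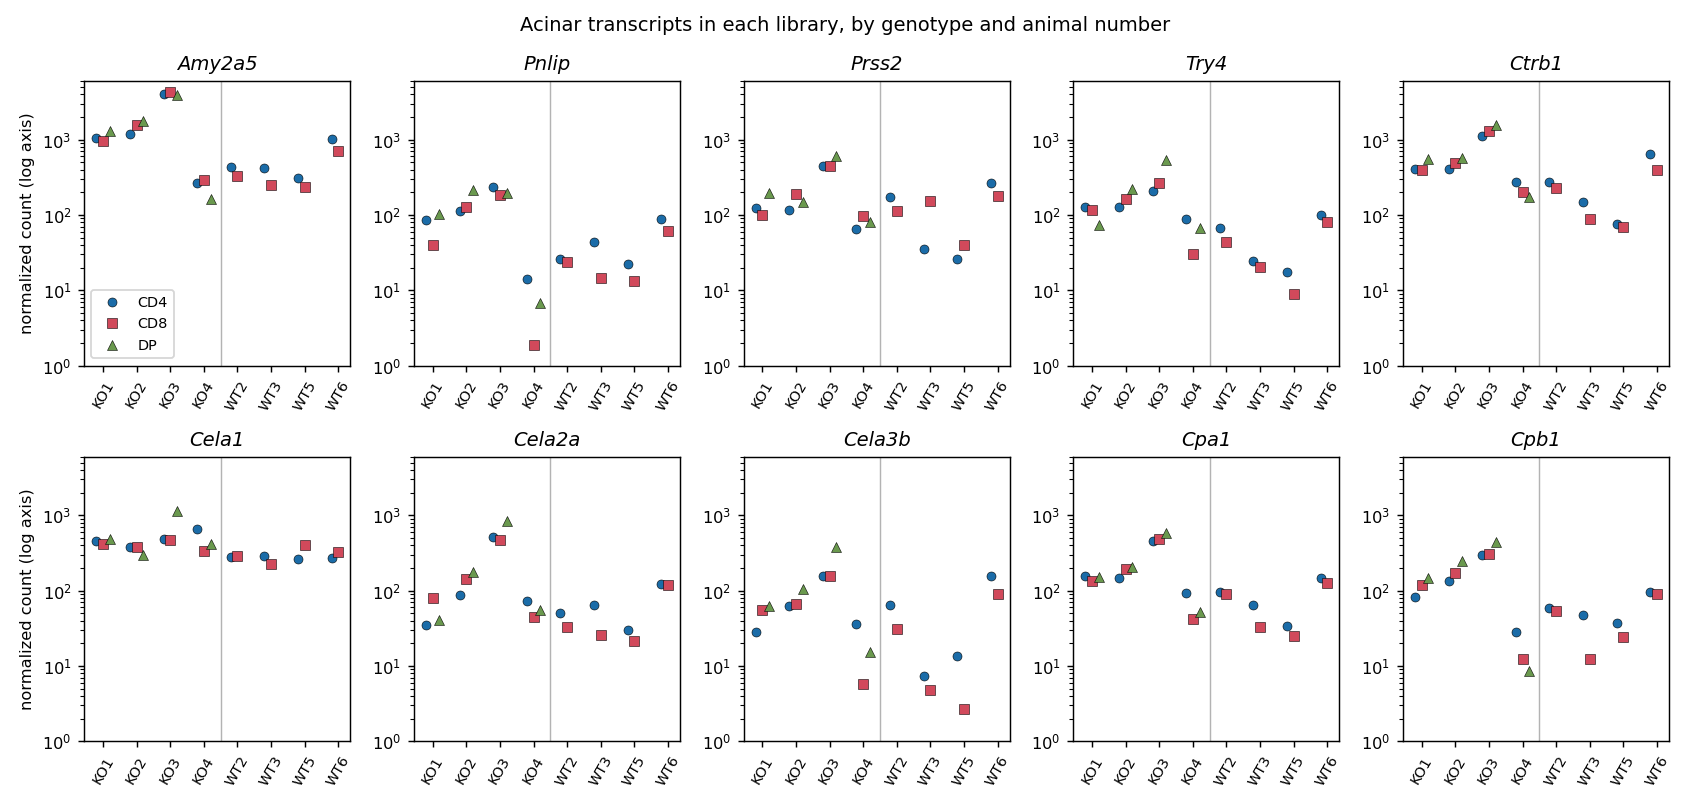
Normalized count of each of the 10 acinar genes (log axis) in the 20 libraries, arranged by genotype and animal number, with 1 point per library and the sorted subset given by the symbol. In most panels the subsets of an animal lie close together and animal KO3 is the highest, while *Cela1* is nearly level.

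The promoter windows of 3 members are shown, *Amy2a5* because it had the most reads, *Cela1* because it was the exception in the comparisons, and *Prss2* because it lies inside a T cell receptor locus. Each runs from 250 bases before to 50 bases after the RefSeq start (GRCm38.p6), 5′ to 3′ on the strand of the gene. Capitals mark a TATA box, searched as TATAAA on the strand of the gene. They also mark an E-box of the PTF1 kind, searched as CACCTG on both strands, and a TC-box, searched as TTTCCC on both strands, which reads as GGGAAA when it lies on the opposite strand. The windows lie at chr3:113258650-113258949 (minus strand) for *Amy2a5*, chr15:100687871-100688170 (minus strand) for *Cela1* and chr6:41521526-41521825 (plus strand) for *Prss2*.
Amy2a5: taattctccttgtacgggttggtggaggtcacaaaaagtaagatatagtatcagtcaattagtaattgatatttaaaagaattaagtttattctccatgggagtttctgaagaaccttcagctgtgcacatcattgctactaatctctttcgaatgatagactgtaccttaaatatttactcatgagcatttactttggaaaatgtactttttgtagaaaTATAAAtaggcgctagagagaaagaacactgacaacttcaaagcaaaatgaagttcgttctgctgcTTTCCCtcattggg
Cela1: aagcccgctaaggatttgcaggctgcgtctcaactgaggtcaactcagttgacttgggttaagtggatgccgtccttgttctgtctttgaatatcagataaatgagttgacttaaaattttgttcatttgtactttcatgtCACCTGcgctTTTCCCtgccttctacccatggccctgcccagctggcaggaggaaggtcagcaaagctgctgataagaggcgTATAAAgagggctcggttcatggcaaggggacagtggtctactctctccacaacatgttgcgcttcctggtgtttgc
Prss2: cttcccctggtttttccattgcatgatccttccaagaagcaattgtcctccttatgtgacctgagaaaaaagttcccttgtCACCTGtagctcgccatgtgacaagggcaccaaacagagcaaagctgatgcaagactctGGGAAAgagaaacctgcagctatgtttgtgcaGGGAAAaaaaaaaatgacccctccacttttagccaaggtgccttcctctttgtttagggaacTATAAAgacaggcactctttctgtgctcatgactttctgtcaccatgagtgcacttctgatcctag

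TATAAA occurred in 6 of the 10 windows, against 8.32% of 32851 promoter windows of the same length. CACCTG occurred in 6 of 10, against 20.2%, and TTTCCC in 6 of 10, against 25.2%. Both boxes were present in *Cela1*, *Cela2a* and *Prss2*, against 4.86% of all windows. The starts of the nearest boxes lay 10 bases apart in *Cela1*, 134 in *Cela2a* and 59 in *Prss2*. The TTTCCC of *Amy2a5* and the TATAAA of *Cpb1* began 36 and 35 bases after the RefSeq start. These are matches of letters and were not tested for binding in any cell.

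Compared per length of exon, the members ranged widely. *Ctrb1*, which encodes chymotrypsinogen, had the highest median over the 20 libraries, at 10.5 reads per kilobase of exon per 1000000 reads, followed by *Amy2a5* at 4.93, *Cela1* at 3.70 and *Prss2* at 3.67. *Try4* had 2.48 and *Cpa1* 1.77. The lowest were *Cela2a* at 0.947, *Cela3b* at 0.802, *Cpb1* at 0.616 and *Pnlip* at 0.581. The ranges over libraries overlapped between all neighbours in this order. The order is that of the 20 libraries pooled and was not that of WT cells, in which *Prss2* and *Cela1* had higher medians than *Amy2a5* (3.05, 2.91 and 2.57 in CD4+ cells, 4.01, 3.26 and 1.78 in CD8+ cells).

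*Amy2a5* encodes pancreatic alpha-amylase, which cleaves starch (GRCm38 chromosome 3, 113249178 to 113258699, minus strand). Its normalized count in KO animals 1 to 4 was 1043, 1204, 4038 and 265 in CD4+ cells, 954, 1554, 4318 and 287 in CD8+ cells, and 1296, 1764, 3885 and 161 in DP cells. In WT animals 2, 3, 5 and 6 it was 427, 421, 309.8 and 1009 in CD4+ cells and 326, 249, 236 and 717 in CD8+ cells. The KO order was animal 3, 2, 1 and 4 in each subset, and the WT order was animal 6, 2, 3 and 5 in both. Animal 3 exceeded animal 4 by 15.3-fold in CD4+, 15.0-fold in CD8+ and 24.1-fold in DP cells, while the highest subset of a KO animal exceeded its lowest by only 1.11- to 1.78-fold. Near-identical amylase copies are a limit here, since 54.4% of its 47-base words also occur in other amylase genes.

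*Pnlip* encodes pancreatic triglyceride lipase (chromosome 19, 58670365 to 58681799, plus strand). In KO animals 1 to 4 its normalized count was 86.0, 113, 234 and 14.3 in CD4+ cells, 39.6, 129, 184 and 1.89 in CD8+ cells, and 103, 218, 196 and 6.71 in DP cells. In WT animals 2, 3, 5 and 6 it was 25.6, 43.1, 22.3 and 87.3 in CD4+ cells and 23.6, 14.4, 13.5 and 62.1 in CD8+ cells. Animal 4 was the lowest KO animal throughout and, in CD4+ and CD8+ cells, fell below every WT library of its subset, while animal 2 passed animal 3 in DP cells. The value of 1.89 in KO CD8+ cells of animal 4 stands for 2 reads, and the ratio of animal 3 to animal 4 there, 97.1, is set by that small count.

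The trypsinogens *Prss2* (chromosome 6, 41521776 to 41525079, plus strand) and *Try4* (chromosome 6, 41302272 to 41305533, plus strand) encode the zymogens of trypsin, which activates the other proteases. Both lie inside the T cell receptor beta locus, between its first and last annotated genes (40891229 to 41558452), and *Prss2* ends 8.1 kb before *Trbd1*, the first D segment. *Prss2* had 124, 118, 448 and 64.8 normalized counts in CD4+, 99.6, 191, 449.8 and 97.5 in CD8+, and 197, 147, 616 and 80.5 in DP cells of KO animals 1 to 4. In WT animals 2, 3, 5 and 6 it had 172, 35.8, 26.2 and 269 in CD4+ cells and 112, 155, 39.5 and 176 in CD8+ cells. KO animal 3 was again the highest in every subset and WT animal 6 in both, but the CD8+ library of WT animal 3 had 155 against 35.8 in its CD4+ library, and its 62.3 *Prss2* reads per 100 *Amy2a5* reads were the most of any library. *Try4* ranged from 30.3 to 536 in KO and from 8.99 to 99.2 in WT libraries, with animal 3 highest and animal 4 lowest in every KO subset. Of the 47-base words of *Try4*, 68.5% occur in other trypsinogen genes, against 9.88% for *Prss2*, so that reads of *Try4* cannot be fully assigned.

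*Ctrb1*, the chymotrypsinogen gene (chromosome 8, 111686510 to 111691010, minus strand), had 413, 411, 1132 and 271 normalized counts in CD4+, 400.5, 487, 1299 and 202 in CD8+, and 554, 569, 1583 and 173 in DP cells of KO animals 1 to 4. The WT animals 2, 3, 5 and 6 had 275, 150.4, 74.8 and 639 in CD4+ and 227, 89.2, 69.2 and 397 in CD8+ cells. The WT order, animal 6, 2, 3 and 5, was that of *Amy2a5* in both subsets, and none of its 47-base words occurs in another gene. The WT animals thus spread over 8.54-fold in CD4+ and 5.73-fold in CD8+ cells.

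*Cela1* encodes an elastase-like protease that is known outside the pancreas as well (chromosome 15, 100674422 to 100687920, minus strand). Its normalized count was 451, 385, 485 and 657 in CD4+ cells, 414, 376, 465 and 337 in CD8+ cells, and 479, 300.1, 1159 and 418 in DP cells of KO animals 1 to 4. It was 283, 292, 262 and 272 in WT CD4+ and 288, 225, 402 and 329 in WT CD8+ cells of animals 2, 3, 5 and 6. No animal was the highest in every subset, KO animal 4 was the highest in CD4+ cells and the lowest in CD8+ cells, and the DP library of animal 3 lay above all others. *Cela1* was the one member whose KO animal order differed between all 3 subsets and whose highest WT animal was never number 6.

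The other elastases had fewer reads and differed more between animals. *Cela2a* (chromosome 4, 141814954 to 141826005, minus strand) ranged from 35.4 to 846 normalized counts in KO and from 21.6 to 123 in WT libraries, and *Cela3b* (chromosome 4, 137421008 to 137430520, minus strand) from 5.68 to 375 and from 2.7 to 155. For both, KO animal 3 was the highest in every subset and WT animal 6 in both, but in CD4+ cells animal 1, not animal 4, was the lowest KO animal, and for *Cela2a* in DP cells too. *Cela2a* overlaps *Casp9* on the opposite strand and *Ctrc* on the same strand. The carboxypeptidases *Cpa1* (chromosome 6, 30639218 to 30645361, plus strand) and *Cpb1* (chromosome 3, 20249479 to 20275733, minus strand), which trim peptides from the C-terminus, ranged from 42.6 to 587 and from 8.63 to 447 in KO libraries and from 25.2 to 148 and from 12.5 to 97.4 in WT libraries. Both were highest in KO animal 3 and lowest in KO animal 4 in every subset.

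The animal order was then counted over all genes with a mean of at least 10 normalized counts. The pattern with animal 3 highest and animal 4 lowest in CD4+, CD8+ and DP cells was shown by 6 of the 10 members (*Amy2a5*, *Ctrb1*, *Cpa1*, *Cpb1*, *Prss2* and *Try4*) and by 0.534% of the 12183 genes tested. In CD4+ and CD8+ cells alone, which leaves out the DP library of animal 3, it was shown by 7 members, *Pnlip* being the further one, and by 1.2% of genes. WT animal 6 was the highest in both subsets for 9 of the 10 members, all but *Cela1*, and for 10.1% of 12559 genes. The members were chosen with these data in view, and the patterns counted were those seen in the members. These counts therefore describe the group, and their excess over all genes is no test.

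A moderated F test of the animal number, with the subset as a term, compared the animals across subsets (limma, Benjamini-Hochberg over all genes, threshold 0.05). In the 12 KO libraries 9 of the 10 members passed, against 29.5% of genes. *Amy2a5* had an adjusted p of 2.8e-05, and 97.6% of its variance after the subset term lay between animals, where the median gene had 62.0%. *Cela1* did not pass (45.3%, adjusted p = 0.21). Without the DP library of animal 3, 9 members passed again, against 51.5% of genes. Without the whole of animal 3, 8 members passed, and without animal 4 also 8. In the 8 WT libraries 5 members passed, *Amy2a5*, *Ctrb1*, *Cela3b*, *Cpa1* and *Try4*, against 0.717% of genes. The unadjusted p was under 0.05 for 9 members, against 1594 of 12559 genes. On whole reads edgeR no longer called *Cpa1* (adjusted p = 0.0526) and *Try4* (adjusted p = 0.0601). *Ctrb1* had an adjusted p of 0.000169 and *Amy2a5* one of 0.000418, with 98.4% and 98.6% of the variance between animals against a median of 60.2%. Without WT animal 6 the count fell to 1 and without WT animal 5 to 3, so that the WT count rests largely on these animals. For edgeR and the runs without a whole animal, KO or WT, the share of all genes called was not counted.

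**Figure D2:**
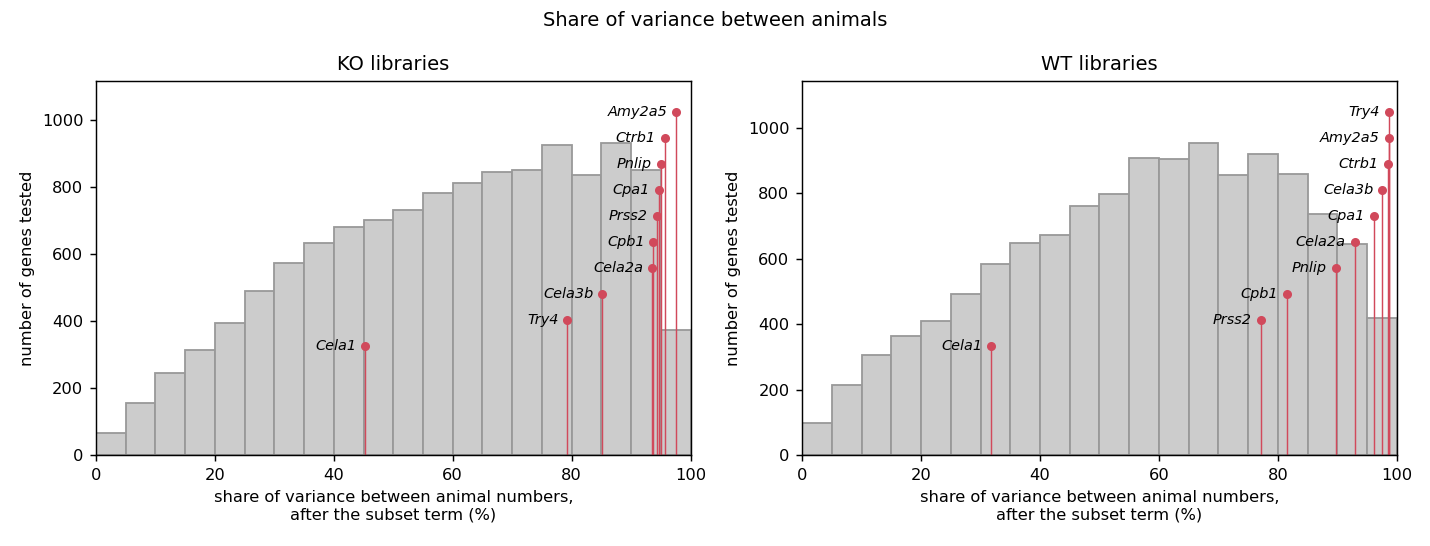
Share of the variance after the subset term that lay between animal numbers (percent), for all genes tested (gray bars, number of genes per 5% bin) and for the 10 members (red lines with names, whose height has no meaning), in KO and in WT libraries. Most members lie at the right end, and *Cela1* lies at 45.3% in KO and 31.8% in WT.

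The spread between animals was set beside that between subsets of an animal. For the sum of the 10 genes on the log2 scale, the SD between the 4 KO animals was 1.24 (median over subsets) and the SD between the 3 subsets of a KO animal 0.22 (median over animals). For *Amy2a5* the values were 1.62 and 0.25, for *Cpb1* 1.98 and 0.43, and for *Pnlip* 2.26 and 0.61. For *Cela1* they were 0.32 and 0.34. Without the DP library of animal 3 these SDs were 1.03 and 0.22 for the sum and 1.62 and 0.25 for *Amy2a5*. They were 1.98 and 0.43 for *Cpb1* and 2.53 and 0.61 for *Pnlip*. For *Cela1* they were 0.32 and 0.15, so that its spread between subsets rested largely on that library.

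Over the 20 libraries, the Spearman correlation between pairs of the 9 members other than *Cela1* was 0.633 to 0.973 (36 pairs, median 0.867), and that of *Cela1* with each of them 0.269 to 0.543 (median 0.394). Without the KO DP library of animal 3 the median was 0.845 among the 9 and 0.293 for *Cela1*. These points share libraries, animals and depth, and the coefficients are a description. Relative to 100 reads of *Amy2a5* in the same library, *Cpa1* stayed within 10.6 to 35.7, *Cpb1* within 4.29 to 16.6 and *Ctrb1* within 24.1 to 107, which are 3.35-, 3.86- and 4.44-fold ranges while *Amy2a5* itself moved between 161 and 4318 normalized counts. The proportions of the other members varied more, over 7.47-fold for *Prss2*, 10.9- to 13.5-fold for *Cela2a*, *Try4* and *Cela3b*, 18.7-fold for *Pnlip* and 24.1-fold for *Cela1*, which ran from 10.8 to 260. None of these extremes came from the KO DP library of animal 3. The highest proportions of *Ctrb1*, *Cela1*, *Cela2a*, *Cpa1* and *Try4* were those of libraries of KO animal 4, where *Amy2a5* was low.

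**Figure D3:**
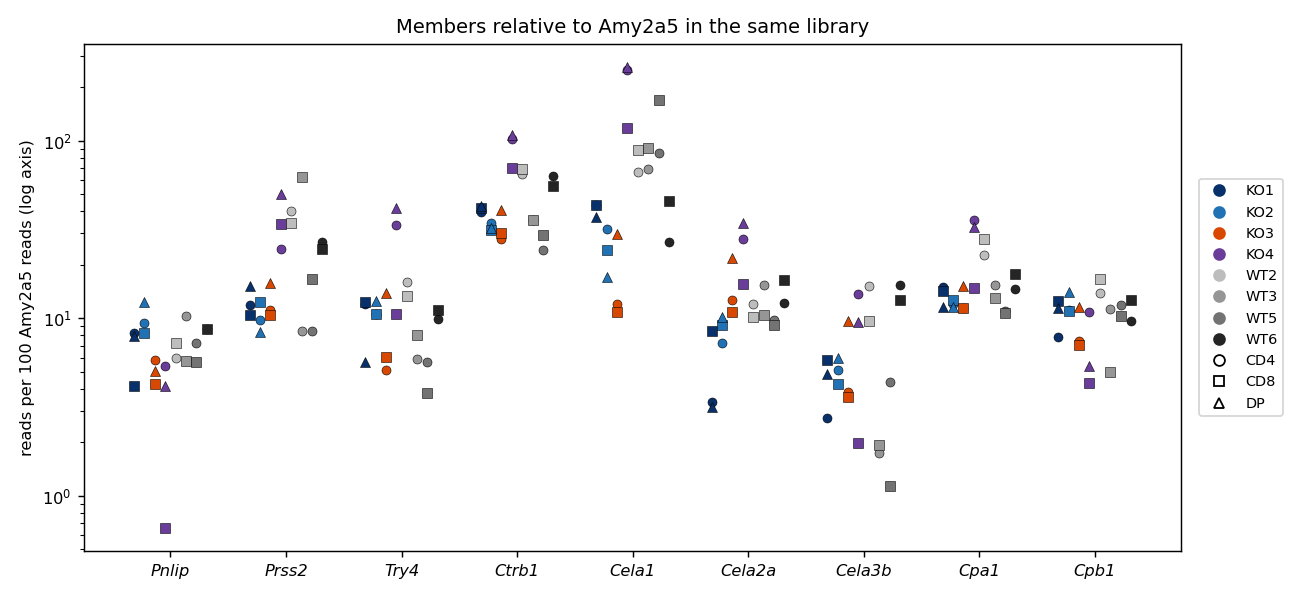
Reads of each other member per 100 reads of *Amy2a5* in the same library (log axis), with animals by color and subsets by symbol. *Cpa1* and *Cpb1* form the narrowest bands, *Prss2*, *Cela2a*, *Try4*, *Cela3b* and *Pnlip* spread over 7.47- to 18.7-fold, and *Cela1* spreads from 10.8 in the KO CD8+ library of animal 3 to 260 in the KO DP library of animal 4.

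Between KO and WT CD4+ cells, all 10 members had positive log2 fold changes, with a median of 0.89 against −0.05 over all genes, of which 45.1% were positive. On average *Amy2a5* had 1637 ± 1652 normalized counts in KO and 542 ± 316 in WT cells (SD, n = 4), which is a difference of 1.14 on the log2 scale (SE 0.67, adjusted p = 0.244 by limma). *Cela1* alone passed the threshold, against 18.4% of genes, with 494 ± 116 in KO and 277 ± 12.8 in WT cells (log2 fold change 0.81, SE 0.18, adjusted p = 0.0155). It was also the only member whose KO and WT values did not overlap, against 25.6% of genes, and it lost the call without WT replicate 6 (log2 fold change 0.80, adjusted p = 0.0528 by limma), in the joint fit of 20 libraries (adjusted p = 0.0842) and with the replicate block (log2 fold change 0.59, adjusted p = 0.375). An unadjusted p under 0.05 was found for 3 members, against 4508 of 12391 genes. Without KO replicate 4, 3 members passed, namely *Amy2a5*, *Pnlip* and *Cela1*, but the share of all genes called was not counted in that run. Without KO replicate 3 the log2 fold change of *Amy2a5* was 0.51 and that of *Cela2a* 0.04 in place of 0.80.

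In CD8+ cells all 10 members were again positive, with a median of 1.47 against −0.04 over all genes, but none passed, against 25.2% of genes. For 3 members the unadjusted p was under 0.05, against 4897 of 12383 genes. *Amy2a5* had 1778 ± 1771 normalized counts in KO and 382 ± 227 in WT cells (log2 fold change 1.76, SE 0.71, adjusted p = 0.0971). *Try4* had 144 ± 96.7 and 38.1 ± 31.3 (log2 fold change 1.93, SE 0.77, adjusted p = 0.0945), and *Cela1* 398 ± 54.8 and 311 ± 73.9 (log2 fold change 0.38, SE 0.20, adjusted p = 0.184). The KO and WT values overlapped for every member, whereas they did not for 30.6% of genes. For *Amy2a5*, KO animal 4 (287) lay within the WT range and WT animal 6 (717) within the KO range. On whole reads edgeR called 1 member, *Amy2a5* (adjusted p = 0.0476), and DESeq2 called 4, *Amy2a5*, *Cela2a*, *Cpa1* and *Try4*. Without KO replicate 4 limma called 3 members, *Amy2a5*, *Cpb1* and *Try4*. For edgeR, DESeq2 and this run the share of all genes called was not counted. Without KO replicate 3 the log2 fold change of *Amy2a5* was 1.13 and that of *Pnlip* 0.03 in place of 0.76.

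**Figure D4:**
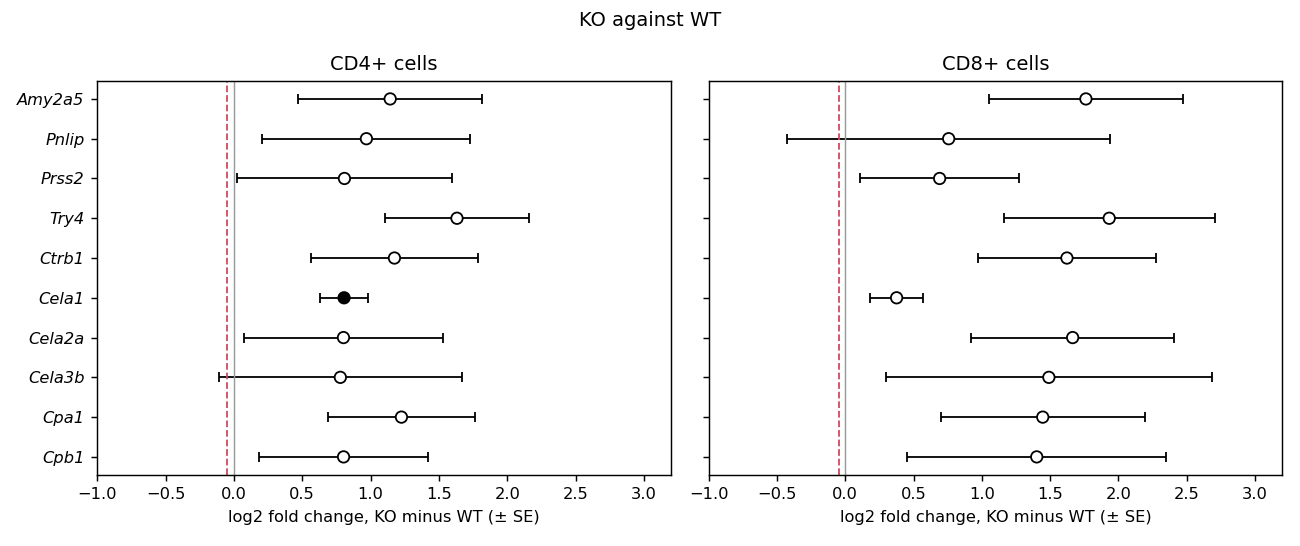
Log2 fold change of KO over WT cells with its SE (limma, 4 libraries against 4) for each member in CD4+ and CD8+ cells, filled where the adjusted p was under 0.05. The dashed line is the median of all genes tested, and only *Cela1* in CD4+ cells is filled.

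Between the subsets of KO animals no member passed. Between KO DP and KO CD8+ cells, 0 of 10 members passed against 0.00823% of genes, and between KO DP and KO CD4+ cells 0 of 10 against 1.95%. Between KO CD4+ and KO CD8+ cells it was 0 of 10 against 4.22%. At an unadjusted p of 0.05 the counts were 0 too, against 237 of 12153, 1814 of 12175 and 1836 of 12189 genes in this order. Blocking on the number left 0 members in all 3 comparisons, against 0.00823%, 7.06% and 18.9% of genes. With the block, 2 members had an unadjusted p under 0.05 between DP and CD8+ cells, against 1447 of 12153 genes. Neither edgeR nor DESeq2 called a member there, and leaving out the DP library of animal 3 gave 0 as well. For *Amy2a5* the log2 fold changes were −0.09 (SE 1.00, DP against CD8+), 0.02 (SE 0.98, DP against CD4+) and −0.11 (SE 0.90, CD4+ against CD8+).

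Between WT CD4+ and WT CD8+ cells, 0 of 10 members passed without the block, against 44.5% of genes. At an unadjusted threshold of 0.05 the count was 0 too, against 6440 of 12559 genes. Blocking on the number, 3 members passed, against 48.8% of genes. *Amy2a5* was higher in CD4+ cells of all 4 WT animals, by 1.31- to 1.69-fold (log2 fold change 0.50, adjusted p with the block = 0.00174 by limma), and *Ctrb1* (adjusted p = 0.0358) and *Cela3b* (adjusted p = 0.0491) also were. The 3 of 10 members lay under the share of all genes.

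Other acinar genes were examined in the same way. A list of 31 further acinar enzymes and secreted proteins was drawn up, and 26 of them were analysed. Their sum in KO CD4+ cells of animals 1 to 4 was 1414, 1285, 3603 and 623 normalized counts, in CD8+ cells 1452, 1666, 3738 and 542, and in DP cells 1569, 1863, 4369 and 435. In WT animals 2, 3, 5 and 6 it was 727, 384, 276 and 1434 in CD4+ cells and 618, 297, 298 and 1031 in CD8+ cells. Animal 3 was the highest and animal 4 the lowest KO animal in each subset, and WT animal 6 the highest in both. Of 20 list genes tested in KO, 15 passed the test of the animal number, against 29.5% of all genes. Animal 3 was highest and animal 4 lowest throughout for 8 of the 20, against 0.534% of all genes. Of 11 tested in WT 3 passed, against 0.717%. The KO counts of this list were not made without the DP library of animal 3, where 51.5% of all genes passed the test. Between KO and WT cells, 1 of 19 rose in CD4+ cells, against 8.59% of all genes (*Gp2*, zymogen granule membrane glycoprotein, log2 fold change 2.02, SE 0.57, adjusted p = 0.0353) and 2 of 17 in CD8+ cells, against 12.6% of all genes, among them *Rnase1*, pancreatic ribonuclease (log2 fold change 3.48, SE 1.09, adjusted p = 0.0435), and none fell. These shares are near or under those of all genes. *Rnase1* was picked after its values were seen.

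The genes outside the 10 whose counts followed the summed members most closely over the 20 libraries were ranked among 12401 genes by Spearman correlation. They were *Pnliprp1* (0.965), *Amy2b* (0.920), *Dmbt1* (0.914), *Clps* (0.914), *Gp2* (0.908), *2210010C04Rik* (0.883), *Rnase1* (0.860), *Cel* (0.850), *Zg16* (0.845) and *Ifitm1* (0.832). Of these 10, 8 stood in the list of further acinar enzymes and secreted proteins, which was written with earlier results known. That list and the acinar transcription factors together had 20 ranked genes, of which 15 were in the top 50. The 10 genes were the same without the KO DP library of animal 3. *Pnliprp1* and *Clps* encode a lipase-related protein and colipase, *Cel* carboxyl ester lipase, and *Ifitm1* an interferon-induced membrane protein that T cells express. *Pnliprp1* had 257, 269, 964 and 125 normalized counts in KO CD4+ cells of animals 1 to 4 and 196, 88.1, 65.1 and 417 in WT CD4+ cells of animals 2, 3, 5 and 6, the animal orders that the summed members had in CD4+ cells.

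Of the transcription factors of acinar cells, *Rbpjl*, *Nr5a2* and *Gata4* were near the limit of detection, and *Bhlha15* was not. *Rbpjl*, the acinar partner of PTF1A, had reads in 1 library only (3.36 normalized counts), *Nr5a2* reached at most 4.39 and *Gata4* at most 3.84, and *Ptf1a* was not analysed here. *Bhlha15* (MIST1), which secretory cells such as plasma cells also express, had 2.20 to 71.7 normalized counts and did not pass between genotypes (adjusted p = 0.461 for CD4+ and 0.362 for CD8+ cells). *Rbpjl*, *Nr5a2* and *Gata4* were at or close to 0 in libraries with up to 10230.0 normalized counts of the 10 enzymes. How many reads of these factors accompany such enzyme counts in acinar cells was not measured, and the source of the reads was not tested.

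Markers of other cell types were summed in the same libraries, and their part in the acinar values was not tested. In KO, the test of the animal number was passed by 9 of 9 neutrophil, 8 of 10 macrophage, 3 of 3 erythroid and 3 of 13 T cell markers tested. The share of all genes was 29.5%. In WT the counts were 0 of 10, 1 of 10, 3 of 3 and 0 of 13, against 0.717% of genes. Passing this test was thus not particular to the acinar genes. The 10 neutrophil markers gave 83.2, 5.89, 4538 and 599.6 normalized counts in CD4+, 181, 21.6, 3001 and 545 in CD8+, and 161, 9.81, 7781 and 612 in DP cells of KO animals 1 to 4, against 2001 to 4787 in WT libraries. Neutrophil markers were thus the highest of the KO animals in animal 3, as the acinar genes were, but the lowest in animal 2, which was second for the acinar genes. The 3 erythroid markers analysed, of 11 listed, gave 7.21 to 201 in animals 1 and 2, 1059.9 to 1209 in animal 3 and 358 to 792 in animal 4, against 714 to 3700.4 in WT libraries. The 10 macrophage markers gave 1505 to 4883 in KO and 2548 to 4091 in WT libraries, and in KO CD4+, CD8+ and DP cells they were highest in animal 1. In WT cells, 7 of the 10 neutrophil markers and 9 of the 10 members were highest in animal 6 in both subsets. The B cell list (8 of 10 genes analysed) gave 646 to 2291 in KO and 80.9 to 294 in WT libraries. Within it *Cd79b* had 581 to 2245 in KO and 40.1 to 245 in WT libraries, while *Ms4a1*, which encodes CD20, was at most 4.39. The genes of this list did not all go the same way. Of 3 tested in CD4+ cells, 2 were called higher and 1 lower in KO than in WT, where 18.4% of all genes were called. Of 3 tested in CD8+ cells, 1 was called higher and 0 lower, where 25.2% of all genes were called. The sums of the liver list (4 of 10 genes analysed) stayed between 6.63 and 83.2 normalized counts, and *Amy1*, the salivary amylase, between 0 and 63.3.

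**Figure D5:**
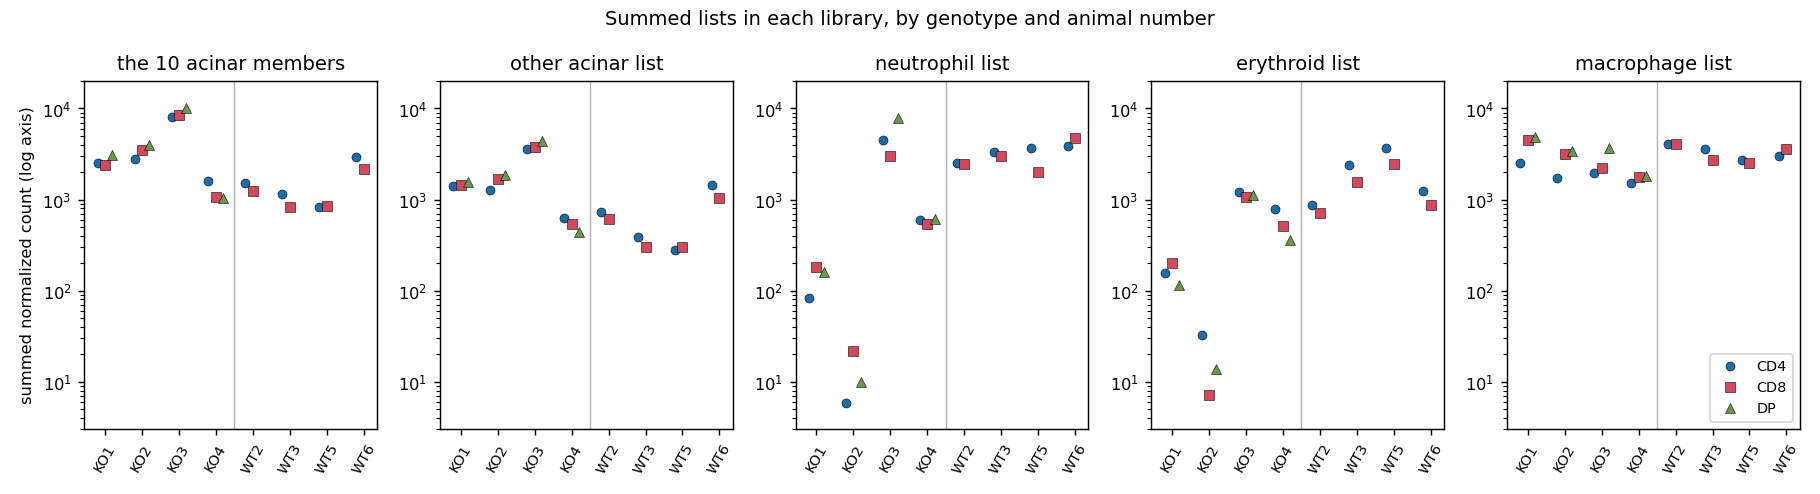
Summed normalized count (log axis) of the 10 members, of the further acinar list and of the neutrophil, erythroid and macrophage lists in each library, by genotype and animal number, with the subset given by the symbol. Both acinar panels are highest in KO3 and lowest in KO4 among KO animals, and highest in WT6 among WT animals. In CD4+ cells KO1 and KO2 change places between them. The neutrophil and erythroid panels drop in animals KO1 and KO2, where the acinar sums lie above those of KO4.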

How the data were processed

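RNA was measured in 20 libraries grouped by genotype, subset and number in their labels. The deposited table holds a signal, read counts normalized by the authors (poly(A)-selected, strand-specific libraries, aligned with STAR to mm10 and normalized with DESeq2, per the labels and methods). Each library had been divided by its DESeq2 size factor, and undoing this returned whole reads for 100% of values (tolerance 1e-06). Replicate libraries are separate samples in the labels, and no pair of libraries of a group agreed within sampling noise (lowest chi-square per degree of freedom 11.1, 30 pairs). Depth, 37547651 to 46966318 reads, limits precision less than the spread between animals. The number pairs libraries within a genotype (every correlation of deviations between equal numbers was over 0.1) but not between genotypes.

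limma 3.58.1 (R 4.3.3, mean-variance trend) was run on log2 values of the normalized counts with 1 added, for genes averaging 10 or more in the libraries compared, 2-sided, with Benjamini-Hochberg adjustment over all genes and a threshold of 0.05. Fold changes on that scale understate changes of low genes. The settings varied were the pseudocount (10), the filter (none, or a mean of 50), the scaling (common 75th percentile), the tool (edgeR 4.0.16 and DESeq2 1.42.0 on whole reads), the libraries (all 20 in a joint fit, or each library or animal left out) and a block on the number. The calculations were tested on simulated data.

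Named were the 10 members, *Dnmt3a*, the 10 other genes most correlated with the members' sum, and of each marker list its counts, at most the 5 most abundant genes, acinar transcription factors and islet hormones. *Reg2*, *Reg3b* and *Ms4a1* fall outside this rule and were named after their values were seen. Members and lists were chosen with earlier results of these data known. Gene positions and promoter windows come from RefSeq (GRCm38.p6, the assembly of mm10), where all 10 members matched. Exon lengths, overlaps and shared 47-base words come from GENCODE. An exon length is the union of the exons of all annotated transcripts of a gene, so the values per length depend on that annotation. Further marker lists for pancreatic duct, salivary gland, intestine, adipocytes, stroma and B cells were summed in the same way, and their sums in any library were at most 1486, 63.3, 462, 255, 8688 and 2291 normalized counts. Bisulfite sequencing was not used here. The values of 1 gene on the list of other acinar enzymes are not reported here singly.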

Additional observations from a re-analysis of the deposited data

Results flagged for a closer look

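In all, 55 groups of 4 libraries were examined (10 members and their sum in 5 groups), on normalized counts without a log. Of these, 7 held a library whose distance from its nearest neighbor took most of the range of the group. A rate of about 1 in 20 would hold for normally distributed values, which such counts need not be. The flags depend on this scale, and log2 values were not examined. *Amy2a5* was 1009 normalized counts in WT CD4+ cells of animal 6, against 309.8 to 427 in the other WT CD4+ libraries. In KO CD4+ cells animal 3 stood out for *Ctrb1* (1132, others 271 to 413), *Cela2a* (513, others 35.4 to 87.4), *Cpa1* (460.3, others 94.4 to 156) and *Prss2* (448, others 64.8 to 124). *Cela2a* also stood out in KO DP cells of animal 3 (846.5, others 41.0 to 179) and in WT CD8+ cells of animal 6 (118, others 21.6 to 33.1). All 7 values came from KO animal 3 or WT animal 6, and the genes are not independent of each other. The cause was not tested.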

How the results depend on the processing

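Alternative runs were compared for single members only between KO and WT cells, and no fold change changed direction there. Fold changes of single members between subsets were not compared in this way. With all libraries of a comparison in the fit, 150 of 160 single-member results kept their side of the threshold, 2 lost the call and 8 gained it, and with 1 library left out 153 of 160 kept it, 1 lost it and 6 gained it. Between KO and WT CD4+ cells, where 1 member passed, the count was 2 with a pseudocount of 10, 3 with DESeq2, 0 in the joint fit of 20 libraries and 0 with the replicate block, and 1 to 3 with 1 library left out. Between KO and WT CD8+ cells, where 0 passed, edgeR gave 1 and DESeq2 4, and leaving out 1 library gave 0 to 3. Between genotypes the number is only shared by animals 2 and 3 (correlations of deviations −0.00 to 0.10 within a subset), so that the block there keeps few libraries in pairs, and under it *Cela1* in CD4+ cells had a log2 fold change of 0.59 (adjusted p = 0.375 by limma) in place of 0.81. Between WT CD4+ and CD8+ cells the block, which pairs the animals, gave 3 instead of 0, and leaving out 1 library gave 0 to 1. In no KO subset comparison did the block change a call of a member. For the animal number in WT, where 5 passed, the count was 3 without a filter, 2 with a minimum mean of 50 (7 members tested) and 3 with edgeR, and 1 to 7 with 1 animal left out (1 without animal 6, 3 without animal 5). In KO it was 8 or 9 of 10 under every alternative run. The share of all genes called was not counted in most alternative runs, so these counts cannot be read as gains or losses particular to the members. Of the 10 genes closest to the members, 9 were shared when the mean of log2 values replaced the sum. The causes of these changes were not tested. *Pnlip* (2 reads) and *Cela3b* (3 reads) in their lowest libraries are limited by depth.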

Other observations

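*Reg3b* and *Reg2*, regenerating proteins that acinar cells are known to raise in pancreatic injury, departed from the animal order of the enzymes, and they are named here after their values were seen. *Reg3b* had 85.1, 33.4, 0.955 and 5.49 normalized counts in CD4+ cells of KO animals 1 to 4, 94.2, 65.9, 11.2 and 0 in CD8+ cells and 108, 78.5, 0 and 0 in DP cells, against 0 to 3.67 in WT libraries. *Reg2* had 93.7, 56.0, 8.59 and 0 in CD4+ cells, 67.5, 83.4, 35.9 and 0 in CD8+ cells and 91.7, 119.7, 17.4 and 3.84 in DP cells of KO animals 1 to 4, against 0 to 16.5 in WT libraries. Both were highest in animals 1 and 2, whereas the enzymes were highest in animal 3. The animal number passed for both in KO (limma F test, adjusted p = 0.00427 for *Reg3b* and 0.000691 for *Reg2*).

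*Gcg*, the gene of the islet hormone glucagon, was read mainly in CD4+ cells. It had 309, 152, 880.4 and 219 normalized counts in CD4+ cells of KO animals 1 to 4 and 1689 to 5576 in WT CD4+ cells, but 0 to 15.7 in KO CD8+, 0 to 27.0 in KO DP and 0.899 to 8.34 in WT CD8+ cells. In KO CD4+ cells animal 3 had the most *Gcg*, as it had the most acinar transcript, but animal 2, which was second for the acinar genes, had the least. WT animal 5, which had the least acinar transcript in CD4+ cells, had the most *Gcg*. The other islet hormones were not analysed here.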
